A study of Mus musculus with 11 samples.

Results

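The messenger RNA of 10 cytokine receptor genes was followed in double-negative (DN) thymocytes, the early T cell precursors of the thymus that carry neither CD4 nor CD8. The genes were Kit, Flt3, Il7r, Il2ra, Il2rb, Il2rg, Il4ra, Il1r1, Ifngr1 and Il17rb, out of 35975 genes to which the transcripts of the libraries could be summed. They were chosen by name, but with earlier results of these data known, so the set is not independent of the data. The 11 libraries came from sorted DN2 and DN3 cells of mice whose strain the labels give as C57BL/6J, while the knockout was made in C57BL/6N embryos per the methods of the study. The DN2 cells gave 3 WT and 2 Arpp21-/- libraries, and the DN3 cells gave 3 of each genotype. In Arpp21-/- mice CRISPR/Cas9 with a pair of guides had removed exon 5 of the long isoform of Arpp21, which encodes an RNA-binding protein. The short isoform was left, and the study reports more of its protein in Arpp21-/- thymocytes. DN2 and DN3 cells were separated by surface CD44 and CD25 after depletion of CD4 and CD8 positive cells, so the protein of Il2ra (CD25) was part of both gates, while the protein of Kit (CD117) was not used. The study used mice of both sexes and of different ages, and the age and sex behind each library, and whether each came from its own animal, are not given in the sources used here, so p-values measure the spread between these libraries, which may be technical. All 10 genes passed the filter on low counts that 13780 genes passed.

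A cytokine receptor is a chain, or a pair or trio of chains, in the cell membrane that carries the signal of a secreted protein into the cell. Kit and Flt3 are receptor tyrosine kinases for stem cell factor and FLT3 ligand, which early progenitors use for survival and growth. Il7r, Il2ra, Il2rb, Il2rg and Il4ra encode chains of the interleukin-7, interleukin-2 and interleukin-4 receptors, which signal through JAK kinases and STAT factors, and Il2rg is the common gamma chain that these receptors share. Interleukin-7 is the main survival cytokine of early thymocytes. Il1r1 belongs to the interleukin-1 receptor family, Ifngr1 is the ligand-binding chain of the interferon gamma receptor, and Il17rb binds interleukin-25. In the passage from DN2 to DN3 a thymocyte commits to the T cell lineage, loses Kit and CD44 from its surface and rearranges the T cell receptor beta locus.

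Kit, Il4ra and Il1r1, for which every DN3 WT library lay below every DN2 WT library, are shown by the 300 bases around the start site of RefSeq (250 bases before it and 50 after it, GRCm38.p6, plus strand). Flt3, Il7r and Il17rb also lay lower in this way, and their windows are not shown. Capitals mark matches on either strand to 7 short motifs: that of RUNX factors (TGTGGT), that of ETS factors (CCGGAAG), that of PU.1 (GAGGAA), that of GATA factors (AGATAA), the E-box (CAGCTG), that of STAT factors (TTCNNNGAA) and the GC-box (GGGCGG).
Kit, chr5:75574737-75575036: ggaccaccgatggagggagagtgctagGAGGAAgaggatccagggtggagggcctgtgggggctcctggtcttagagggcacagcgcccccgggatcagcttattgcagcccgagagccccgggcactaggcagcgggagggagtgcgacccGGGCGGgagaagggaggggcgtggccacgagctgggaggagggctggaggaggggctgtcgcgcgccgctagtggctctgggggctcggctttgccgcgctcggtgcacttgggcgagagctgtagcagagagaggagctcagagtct
Il4ra, chr7:125552021-125552320: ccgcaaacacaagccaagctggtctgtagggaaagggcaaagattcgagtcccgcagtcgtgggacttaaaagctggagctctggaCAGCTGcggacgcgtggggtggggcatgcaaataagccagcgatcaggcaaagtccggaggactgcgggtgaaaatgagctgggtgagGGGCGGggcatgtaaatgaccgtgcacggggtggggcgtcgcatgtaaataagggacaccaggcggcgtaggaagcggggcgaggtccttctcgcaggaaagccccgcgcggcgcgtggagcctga
Il1r1, chr1:40266336-40266635: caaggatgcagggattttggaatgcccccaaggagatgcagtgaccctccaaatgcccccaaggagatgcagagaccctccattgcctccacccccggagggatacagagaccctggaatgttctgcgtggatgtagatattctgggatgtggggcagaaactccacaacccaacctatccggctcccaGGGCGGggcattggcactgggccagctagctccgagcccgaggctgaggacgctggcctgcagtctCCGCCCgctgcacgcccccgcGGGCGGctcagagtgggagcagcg
Each of the 3 windows shown held at least 1 GC-box, which 35.66% of all 32851 RefSeq windows of this length also held. The windows of Flt3 and Il7r and the upstream window of Il1r1 held 0, and that of Il17rb held 1. The Kit window held 1 match to the PU.1 letters (28.28% of all windows) and the Il4ra window 1 match to the E-box letters (16.3% of all windows). A match describes letters and not a bound site. The Il1r1 window shown is the downstream one of 2 RefSeq windows and belongs to the start of Il1r1-202, the transcript to which 94.4% of all Il1r1 counts were assigned. A window was found for 9 of the 10 genes.

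The libraries held between 14531762 and 63109504 estimated counts, and 3 counts correspond to between 0.0802 and 0.242 CPM, the count of a gene scaled by library size (with trimmed means, TMM). Of the other genes that check the labels, Cd44 was between 55.6 and 109.2 CPM in DN2 and between 5.37 and 13.1 CPM in DN3, and Ptcra, the surrogate alpha chain of the pre-T cell receptor, was at most 11.7 CPM in DN2 and at least 365.3 CPM in DN3. Arpp21 itself was at 183.2, 125.1 and 136.2 CPM in the WT and at 86.9 and 28.5 CPM in the Arpp21-/- libraries of DN2, which did not overlap. For DN3 the WT values were 385.7, 335.6 and 311.9 CPM and the Arpp21-/- values 334.8, 220.8 and 142.0 CPM, which overlapped. These sums cover whole transcripts, so they do not measure the loss of the exon. Library 2 of DN2 Arpp21-/- and library 3 of DN3 Arpp21-/- stood apart from the rest. Their correlation with the other libraries of their group over genes (Pearson's r of log2 CPM) was 0.685 for the former and 0.805 and 0.854 for the latter, against 0.929 to 0.987 between all other pairs. The summed level of 8 markers of natural killer and innate lymphoid cells was 1671.4 CPM in library 2 of DN2 Arpp21-/- and 322.4 to 362.3 in the other DN2 libraries, nearly all of it Nkg7, with Ncr1 at 0 in all 5. The sum of 7 myeloid markers was 356.6 CPM there and 114.0 to 159.0 in the others. The single markers of these 2 lists did not move as 1 set in the genotype comparison of DN2, which uses both Arpp21-/- libraries. Of the 7 myeloid markers, 4 had a negative log2 fold change and 3 a positive one, with a median of -0.96. Of the 5 tested natural killer and innate lymphoid markers, 3 were negative and 2 positive, with a median of -0.28. Markers of mast cells and basophils summed to between 404.9 and 911.3 CPM in DN2 and at most 25.5 CPM in DN3, nearly all of it Cpa3, while Fcer1a was at 0 in all libraries. Markers of gamma delta T cells, led by Trgc1 (whose near-identical copies can share reads), summed to 7653.4 CPM in library 2 of DN2 Arpp21-/-, to between 2988.5 and 3512.7 CPM in the other DN2 libraries and to between 1367.1 and 2314.9 CPM in DN3. The sums of B cell markers were between 38.6 and 71.9 CPM, with Pax5 at 0 in all libraries, those of thymic epithelium at most 107.5 CPM, and those of double-positive thymocytes between 43.5 and 501.4 CPM. In library 2 of DN2 Arpp21-/- short genes in general were higher than in the other DN2 libraries. Genes under 1 kb had a median log2 ratio of 1.95, and genes of 1 to 2 kb had 1.12. The part of transcript length in these sums, and of these cells in the results, was not tested. Values without both libraries are given beside the main results below.

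Levels are compared between genes per length, in TPM, which are scaled by transcript length and by library. Il2ra was the most abundant of the 10 in WT cells, with 435.0 ± 150.6 TPM in DN2 and 495.6 ± 127.9 TPM in DN3 (mean ± SD, n = 3 each). Ifngr1 with 325.3 ± 53.3 TPM and Il2rg with 306.2 ± 44.0 TPM followed in DN2 WT, and the ranges of the 3 genes over libraries overlapped. Kit (134.3 ± 18.0 TPM) lay below these and above Il7r (61.7 ± 16.1 TPM), Il17rb (49.9 ± 1.62 TPM) and Il4ra (32.3 ± 11.7 TPM). Neighbours in this last run overlapped for Il7r and Il17rb, and Il4ra stayed below Il17rb in every library. Il1r1 had 6.75 ± 0.893 TPM, and Flt3 (1.1 ± 0.61 TPM) and Il2rb (0.877 ± 0.755 TPM) were lowest and overlapped. In DN3 WT Kit had moved from place 4 to place 6 of the 10, below Il7r, and Flt3 was last with 0.0734 ± 0.0394 TPM.

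**Figure D1:**
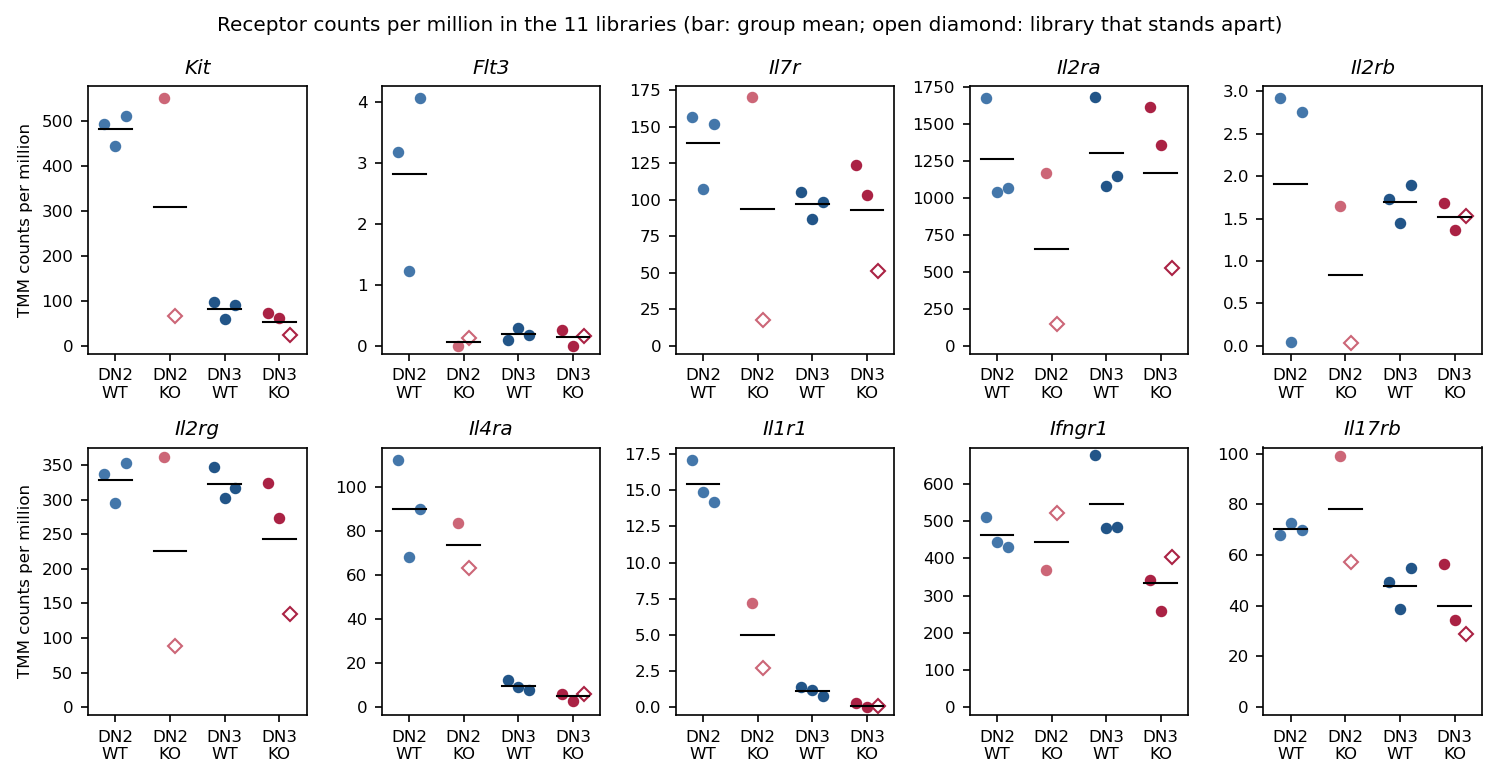
Each panel plots 1 receptor gene in the 11 libraries as CPM on TMM library sizes on a linear axis from 0, with the group mean as a bar and open diamonds for the 2 libraries that stood apart. Kit, Flt3, Il4ra and Il1r1 lie higher in every DN2 WT library than in any DN3 library, while Il2ra, Il2rb and Il2rg overlap between DN2 WT and DN3 WT.

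The first comparison asked how the receptors differed between DN2 and DN3. Il4ra and Il1r1 fell in both genotypes, and they were the only members that passed the edgeR quasi-likelihood test (adjusted p under 0.05) in either. Kit and Flt3 were lower in DN3 WT by 2.55 and 3.86 on the log2 scale without passing it. The interleukin-2 receptor chains and Ifngr1 had log2 fold changes between -0.17 and 0.24 in WT. Of all 13780 genes tested, 4.08% were called in WT and 4.32% in Arpp21-/- cells, against 2 of 10 members in each. With the replicate block, in which libraries of the same number were taken as pairs, 216 genes (1.57% of all) in place of 562 were called in WT. Il4ra (adjusted p = 0.0139) and Il1r1 (adjusted p = 0.0448) stayed under the threshold, and Kit (adjusted p = 0.0903) and Flt3 (adjusted p = 0.368) stayed above it. The block, with only 2 shared numbers in Arpp21-/- cells, there left Il4ra called and ended the call of Il1r1 (adjusted p = 0.0626). There it paired library 2 of DN2, which stood apart, with library 2 of DN3, which did not. The deviations of these 2 from their group means had r = -0.75, so the pairing is not borne out in Arpp21-/- cells.

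Il4ra, the alpha chain that binds interleukin-4, was at 112.3, 68.2 and 89.8 CPM in DN2 WT and at 12.3, 9.21 and 8.0 CPM in DN3 WT libraries. In Arpp21-/- cells it was at 83.4 and 63.3 CPM in DN2 and at 5.84, 2.99 and 6.05 CPM in DN3. Stages did not overlap in either genotype. The log2 fold change was -3.19 ± 0.37 in WT (SE, adjusted p = 0.00134, 9.15-fold lower in DN3) and -3.89 ± 0.39 in Arpp21-/- cells (adjusted p = 0.000647). Il4ra was called under all 20 alternatives in both genotypes, with a log2 fold change between -3.39 and -2.78 in WT.

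Il1r1, the signalling receptor of interleukin-1, was at 17.1, 14.9 and 14.2 CPM in DN2 WT and at 1.37, 1.19 and 0.752 CPM in DN3 WT. In Arpp21-/- cells it was at 7.23 and 2.73 CPM in DN2 and at 0.258, 0 and 0.0807 CPM in DN3, which is 6, 0 and 1 counts. The log2 fold change was -3.79 ± 0.71 in WT (adjusted p = 0.0144) and -5.29 ± 0.85 in Arpp21-/- cells (adjusted p = 0.00658). Voom (adjusted p = 0.066) and limma-trend on log2(TPM + 1) (adjusted p = 0.0527) did not call it in Arpp21-/- cells, and without both libraries that stood apart it was called (log2 fold change -5.65, adjusted p = 0.00357). Leaving out any 1 DN3 WT library ended the WT call, with adjusted p between 0.0678 and 0.0909. Pooled over libraries, 75 counts in DN3 WT against 1090 in DN2 WT gave a level 13.9 times lower, with an exact 95% interval of 11 to 17.8 that covers counting error only.

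Kit was at 493.7, 446.1 and 511.6 CPM in DN2 WT and at 97.3, 60.1 and 90.6 CPM in DN3 WT. In DN2 Arpp21-/- it was at 552.7 CPM in library 1 and 66.6 CPM in library 2, and in DN3 Arpp21-/- at 73.6, 61.2 and 24.5 CPM. DN2 WT and DN3 WT did not overlap, and library 2 of DN2 Arpp21-/- lay among the DN3 libraries. The log2 fold change was -2.55 ± 0.67 in WT (adjusted p = 0.0665) and -2.54 ± 0.71 in Arpp21-/- cells (adjusted p = 0.0791). Without both libraries that stood apart it was -2.53 in WT (adjusted p = 3.68e-05) and -3.04 in Arpp21-/- cells (adjusted p = 0.000166, 1 DN2 Arpp21-/- library). Under that fit 4 members were called in WT, Kit, Flt3, Il4ra and Il1r1, as were 15.3% of all genes. The same fit called 3 members in Arpp21-/- cells, Kit, Il4ra and Il1r1, and 6.15% of all genes. Limma voom with sample quality weights called these 4 members in WT and 16.9% of all genes.

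Flt3 was low in DN2 WT and near the floor of 3 counts in the other groups. It was at 3.18, 1.23 and 4.06 CPM in DN2 WT, at 0 and 0.134 CPM in DN2 Arpp21-/-, and at 0.298 CPM or less in all 6 DN3 libraries. The log2 fold change from DN2 to DN3 was -3.86 ± 1.14 in WT (adjusted p = 0.106) and 0.93 ± 1.33 in Arpp21-/- cells (adjusted p = 0.697), where both stages were at or under 6 counts a library. In WT the pooled counts were 13 in DN3 and 206 in DN2, a level 15.2 times lower with a counting interval of 8.67 to 29.0. These values are for the whole gene. Its protein-coding transcript was assigned 70.3, 0 and 104.3 counts in DN2 WT and 0, 1 and 0 in DN3 WT. The stages overlapped for this transcript. A processed transcript took 15.3% of the Flt3 counts in DN2 WT and 92.4% in DN3 WT.

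Il7r was at 156.9, 107.2 and 152.1 CPM in DN2 WT and at 105.6, 87.0 and 98.2 CPM in DN3 WT. The groups lay just apart, and the log2 fold change of -0.52 ± 0.63 did not pass the test (adjusted p = 0.942). Il17rb was at 68.1, 72.7 and 69.8 CPM in DN2 WT and at 49.2, 38.7 and 55.0 CPM in DN3 WT, again without overlap, with a log2 fold change of -0.56 ± 0.32 (adjusted p = 0.552). Of the 10 members, 6 did not overlap between the stages in WT, and 34.8% of all genes did not. In Arpp21-/- cells 3 members, Il4ra, Il1r1 and Il17rb, did not overlap, against 25.0% of all genes.

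Il2ra was at 1671.0, 1037.8 and 1066.6 CPM in DN2 WT and at 1678.0, 1080.6 and 1149.5 CPM in DN3 WT. Library 1 was the highest at both stages, and the log2 fold change was 0.05 ± 0.64 (adjusted p = 1.0). Il2rg was at 337.6, 294.8 and 353.0 CPM in DN2 WT and at 347.1, 302.7 and 316.2 CPM in DN3 WT, a log2 fold change of -0.03 ± 0.46. Il2rb, the signalling beta chain of the interleukin-2 and interleukin-15 receptors, was at 2.92, 0.0454 and 2.76 CPM in DN2 WT, where library 2 held 1 count, and at 1.73, 1.45 and 1.9 CPM in DN3 WT. Ifngr1 was at 512.0, 442.9 and 430.9 CPM in DN2 WT and at 677.0, 480.6 and 483.9 CPM in DN3 WT, a log2 fold change of 0.24 ± 0.26 (adjusted p = 0.907).

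**Figure D2:**
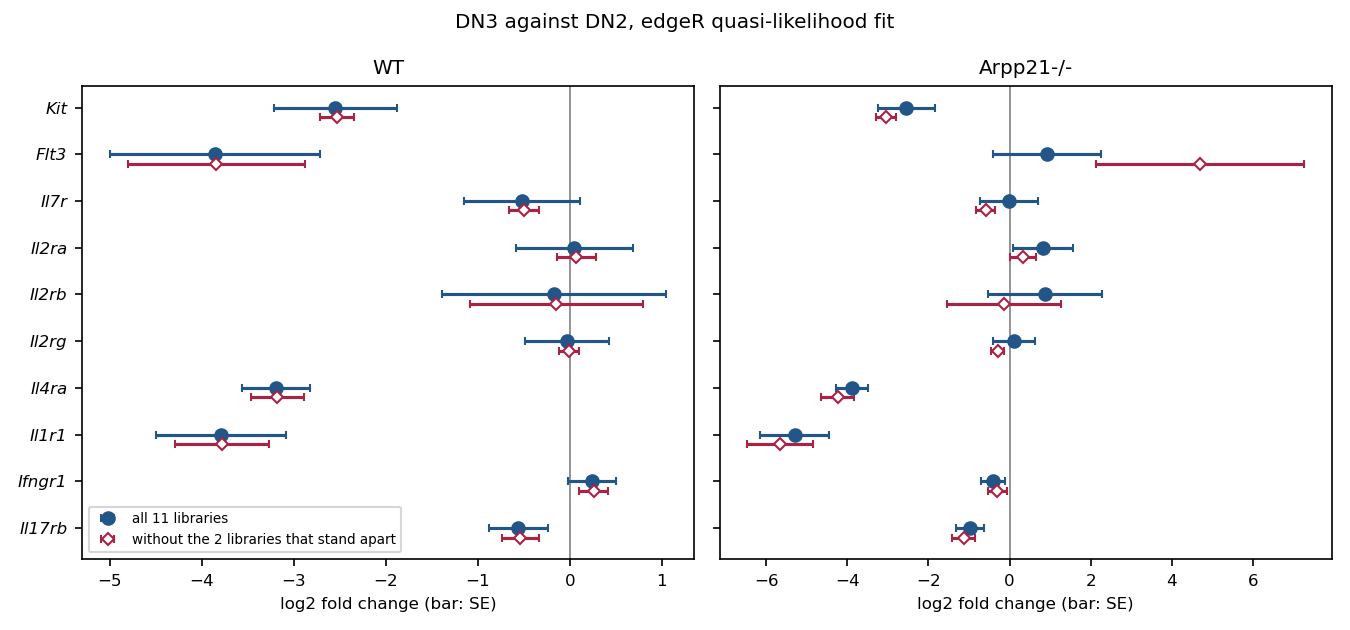
Log2 fold change of DN3 against DN2 with its standard error for the 10 receptors in WT (left) and Arpp21-/- cells (right), from all 11 libraries (filled) and without the 2 that stood apart (open). Il4ra at -3.19 and Il1r1 at -3.79 in WT lie far left of zero in both fits, and the error bars of Kit in WT shorten when those 2 libraries are left out.

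The second comparison asked whether loss of exon 5 of Arpp21 went with other receptor levels in DN3. No member passed the edgeR test, and 0.00726% of all genes did (1 of 13780). All 10 fold changes were below zero, with a median of -0.40, and the median over all genes was 0 to 2 decimals. The shared sign did not hold in every fit. Il2rb was at 0.29 under an offset for transcript length. Without both libraries that stood apart, Il7r (0.22) and Il2ra (0.18) were above zero and the other members below it. From all 11 libraries, 3 members, Il1r1, Il4ra and Ifngr1, had an unadjusted p under 0.05, as did 1.55% of all genes. In the same 3 members every Arpp21-/- library lay below every WT library, as in 5.57% of all genes. In bulk RNA, fewer cells of a type and less RNA per cell cannot be told apart.

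Il1r1 was at 1.37, 1.19 and 0.752 CPM in DN3 WT (30, 28 and 17 counts) and at 0.258, 0 and 0.0807 CPM in DN3 Arpp21-/- (6, 0 and 1 counts). The log2 fold change was -3.13 ± 0.79 (adjusted p = 1.0) and depends on how a count of 0 is handled, and without both libraries that stood apart it was -2.94 (adjusted p = 0.445). Pooled, 7 counts against 75 gave a level 8.52 times lower, with a counting interval of 3.94 to 21.9. DESeq2 called Il1r1 (adjusted p = 0.0366) among 0.116% of all genes, and limma voom with sample quality weights called it (adjusted p = 0.031) together with Ifngr1 (adjusted p = 0.0168) among 0.856% of all genes. The study had chosen Il1r1 for a gene panel on these same libraries, so its direction is not independent evidence.

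Ifngr1 was at 677.0, 480.6 and 483.9 CPM in DN3 WT and at 341.7, 258.7 and 404.3 CPM in DN3 Arpp21-/-. The highest Arpp21-/- value belonged to library 3, which stood apart. The log2 fold change was -0.71 ± 0.26 (adjusted p = 1.0), and without the libraries that stood apart it was -0.87 (adjusted p = 0.252). Il4ra was at 12.3, 9.21 and 8.0 CPM in DN3 WT and at 5.84, 2.99 and 6.05 CPM in DN3 Arpp21-/-, a log2 fold change of -0.99 ± 0.34 (adjusted p = 1.0), or -1.15 (adjusted p = 0.646) without both.

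The other 7 members overlapped between the genotypes in DN3. Il7r was at 123.7, 103.5 and 51.5 CPM in DN3 Arpp21-/- (log2 fold change -0.06 ± 0.63), with libraries 1 and 2 within or above the WT range and library 3 below it. Il2ra was at 1610.8, 1353.8 and 527.4 CPM (log2 fold change -0.16 ± 0.64) and Il2rg at 323.8, 273.4 and 134.4 CPM (log2 fold change -0.40 ± 0.47), again with library 3 lowest. Without the libraries that stood apart the fold changes of Il7r and Il2ra turned to 0.22 and 0.18. Kit (-0.64 ± 0.63), Flt3 (-0.40 ± 1.15), Il2rb (-0.15 ± 1.22) and Il17rb (-0.26 ± 0.32) did not pass the test either, and the standard errors of Flt3 and Il2rb leave room for changes of more than 1 on the log2 scale.

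In DN2 the Arpp21-/- group was 2 libraries, of which library 2 stood apart. No gene passed the edgeR test (0.0% of all genes), while DESeq2 called 38 and voom 0. At an unadjusted p under 0.05 edgeR had 2020 genes, 14.7% of all, and of the members Flt3. Flt3 and Il1r1 were the 2 members for which both Arpp21-/- libraries lay below all WT libraries, as in 8.28% of all genes. Il1r1 was the 1 member below in both stages, as in 0.958% of all genes. Flt3 had 73, 27 and 106 counts in DN2 WT and 0 and 5 in DN2 Arpp21-/-, a log2 fold change of -5.2 ± 1.45 (adjusted p = 0.336). These counts sum a protein-coding and a processed transcript. The protein-coding one was assigned 70.3, 0 and 104.3 counts in DN2 WT and 0 in both DN2 Arpp21-/- libraries. For it, WT library 2 was thus level with Arpp21-/-. All counts of that WT library and all 5 of Arpp21-/- were assigned to the processed one. The values given here are for the whole gene. DESeq2 called the gene (adjusted p = 0.0169) among 0.276% of all genes. Pooled, the level was 36.4 times lower with a counting interval of 15.3 to 113.3, where all 5 counts came from library 2. Library 1 alone, with 0 counts, was at least 24.5 times lower than the pooled WT level, taking 3 counts as the floor of that library. The fitted log2 fold change without both libraries that stood apart was -9.01 (adjusted p = 1.0), and the fits that left out single libraries gave between -8.95 and -4.36, values that depend on how a count of 0 is handled. Il1r1 was at 7.23 and 2.73 CPM against 14.2 to 17.1 CPM in WT, a log2 fold change of -1.63 ± 0.74 (adjusted p = 0.342), or -1.07 (adjusted p = 1.0) without both.

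For the other members the 2 DN2 Arpp21-/- libraries were far apart. Kit was at 552.7 and 66.6 CPM, Il7r at 170.2 and 17.4 CPM, Il2ra at 1166.4 and 143.8 CPM, and Il2rg at 361.8 and 89.1 CPM. Library 1 was within or above the WT range for these 4 genes and library 2 below it. With library 2 as the only DN2 Arpp21-/- library, edgeR called 7 members and 46.2% of all genes in DN2, and with library 1 as the only one it called no member and no gene (0.0%), where 383 genes had an unadjusted p under 0.05, with the lone library assumed to vary like the other groups. Il4ra (83.4 and 63.3 CPM), Ifngr1 (368.2 and 522.2 CPM) and Il17rb (98.9 and 57.1 CPM) differed less between the 2 libraries.

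**Figure D3:**
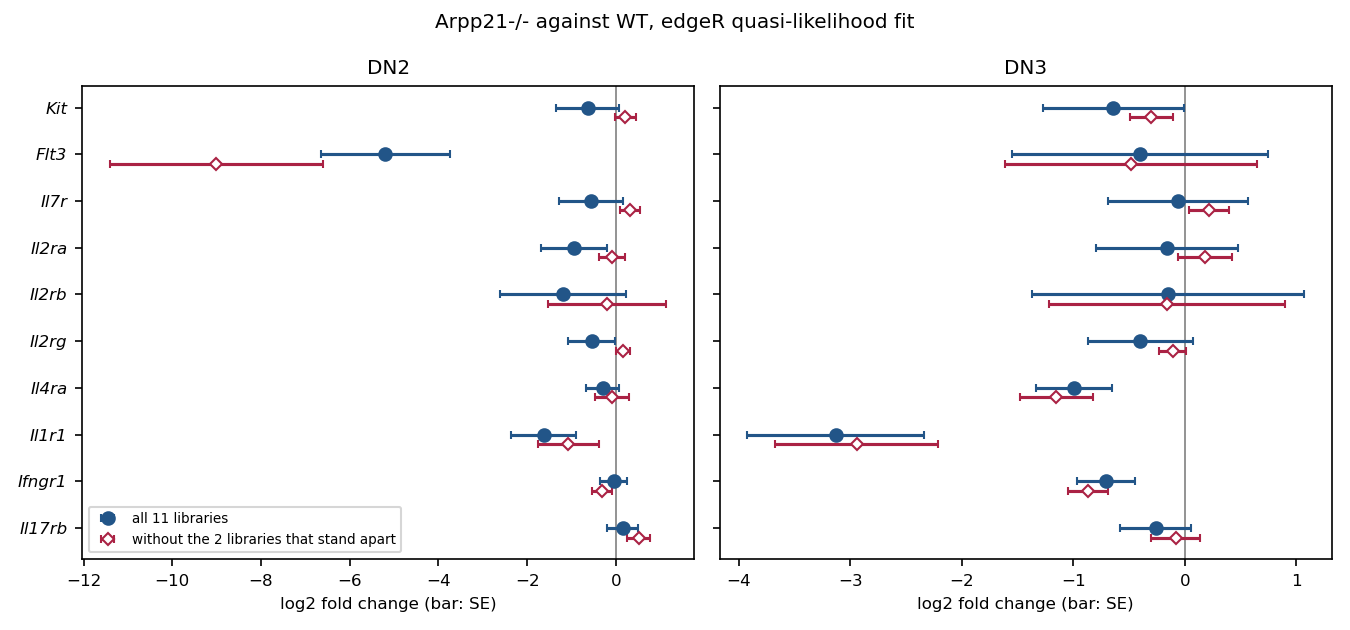
Log2 fold change of Arpp21-/- against WT with its standard error for the 10 receptors in DN2 (left) and DN3 (right), from all 11 libraries (filled) and without the 2 that stood apart (open, 1 DN2 Arpp21-/- library). The axes of the panels differ. From all libraries, Il1r1 at -3.13 in DN3 and Flt3 at -5.2 in DN2 lie farthest from zero, and the open point of Flt3 in DN2, at -9.01, rests on a library with 0 counts.

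The difference between the genotype effects of the 2 stages (interaction) was called by edgeR for no gene (0.0% of all genes), by DESeq2 for 10 and by voom for 0, and 373 genes had an unadjusted edgeR p under 0.05. Among the members Flt3 had an unadjusted p of 0.0222, with a difference of 4.79 ± 1.78 on the log2 scale (adjusted p = 0.964), which rests on the 5 counts of DN2 Arpp21-/-, and 8.53 (adjusted p = 1.0) without both libraries that stood apart. Kit had a difference of 0.01 ± 0.95 and Ifngr1 of -0.66 ± 0.39.

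In the 2 libraries that stood apart, levels followed transcript length. Genes under 1 kb were higher in library 2 of DN2 Arpp21-/- than in the other DN2 libraries by a median of 1.95 on the log2 scale (785 genes), and genes over 5 kb had a median log2 ratio of -2.24 (1256 genes). In library 3 of DN3 Arpp21-/- the same medians were 1.03 and -1.24. Kit, with a mean transcript length of 5185 bases, had log2 ratios of -2.9 and -1.59 in these libraries, and 32.6% and 36.8% of the genes of its length class were lower. Il7r (3479 bases) had a log2 ratio of -3.02 in library 2 of DN2 Arpp21-/-, with 15.1% of its class lower, and Il2ra (4321 bases) had -3.07, with 19.1% of its class lower. Il2rg did not follow its length. At 1644 bases its class had medians of 1.12 and 0.51, while its own log2 ratios were -1.91 and -1.21, and 2.9% and 1.7% of its class were lower. Il4ra (4186 bases) lay above its class, with log2 ratios of -0.46 and -0.19 against medians of -1.66 and -0.78.

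**Figure D4:**
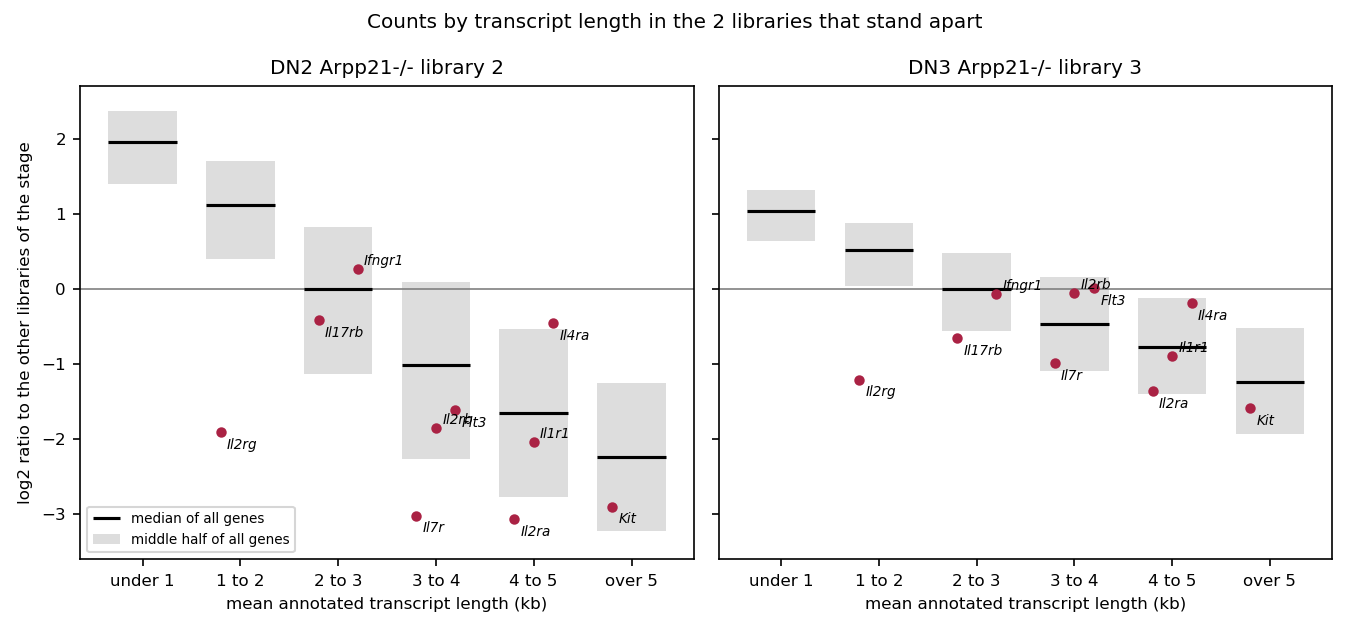
Log2 ratio of 1 library to the mean of the other libraries of its stage, by mean annotated transcript length in kb, for library 2 of DN2 Arpp21-/- (left) and library 3 of DN3 Arpp21-/- (right). Grey boxes span the middle 50% of all genes with a mean of at least 5 CPM, black lines are their medians and red points are the 10 receptors. Medians fall with length in both, and Il2rg lies below the box of its class in both.

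Several of the receptors act as pairs or trios of chains, and the levels of the partner chains set those members in context. Ifngr1 stood far above its partner Ifngr2, which was at 8.67 ± 2.96 TPM in DN2 WT and 11 ± 2.12 TPM in DN3 WT, so that the ratio of Ifngr1 to Ifngr2 TPM was between 13.5 and 59.1 over the 11 libraries. In DN3 the ratio was 59.1, 31.2 and 29.2 in WT and 21.2, 13.5 and 19.2 in Arpp21-/- libraries. Il2ra exceeded Il2rb by a ratio of at least 193.3 in every library. Il7r was lower than the common chain Il2rg throughout, with a ratio between 0.101 and 0.219. Il1rap, the accessory chain of the interleukin-1 receptor, was at 6.7 ± 1.64 TPM in DN2 WT and 5.26 ± 1.7 TPM in DN3 WT (log2 fold change -0.44 ± 0.37, adjusted p = 0.803), and the ratio of Il1r1 to Il1rap went from between 0.682 and 1.31 in DN2 WT to between 0.05 and 0.0959 in DN3 WT. Il13ra1, which pairs with Il4ra in the receptor for interleukin-13, had at most 0.48 TPM in any library. Il17ra, the partner of Il17rb, was at 109.5 ± 6.74 TPM in DN2 WT and 115.7 ± 14.7 TPM in DN3 WT, above Il17rb in every library.

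Transcripts of Kit and Il4ra differ in ways that change the receptor, and the sequences below show where. Kit-201 carries 12 bases at the end of exon 9 (chr5:75639147-75639158, GRCm38, capitals) that Kit-204 lacks, which insert 4 amino acids next to the membrane. Il4ra-205 carries an extra exon of 114 bases (chr7:125571934-125572047) that Il4ra-201 lacks and that soon reaches a stop codon (capitals), before the part that spans the membrane. An Il4ra RNA of this kind is known to encode a soluble receptor in the mouse. The annotation, however, classes Il4ra-205 as an RNA subject to nonsense-mediated decay. It was assigned between 62.8% and 69.2% of all Il4ra counts in the 4 groups, and which reading holds was not tested.
Kit-201: catttaaagGTAACAACAAAGagcaaatcc
Kit-204: catttaaagagcaaatcc
Il4ra-205: ggtacaacccaagtaatgaaaatctgTGA
Of the counts assigned to Kit-201 and Kit-204, Kit-201 took 41.0%, 37.0% and 42.9% in the WT and 39.9% and 41.9% in the Arpp21-/- libraries of DN2. For DN3 its shares were 46.6%, 36.2% and 36.6% with WT and 51.9%, 49.8% and 46.0% with Arpp21-/- cells. The genotypes overlapped in DN3, and the difference of 9.44 percentage points had an exact two-sided permutation p of 0.2, where 3 against 3 libraries cannot go below 0.1. Il4ra-205 took between 46.7% and 76.0% of the counts of Il4ra-205 and Il4ra-201 over all libraries, with means of 66.7% in DN2 WT and 68.3% in DN3 WT (exact permutation p = 0.6). These shares are kallisto's split of reads between transcripts that also differ at their ends.

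**Figure D5:**
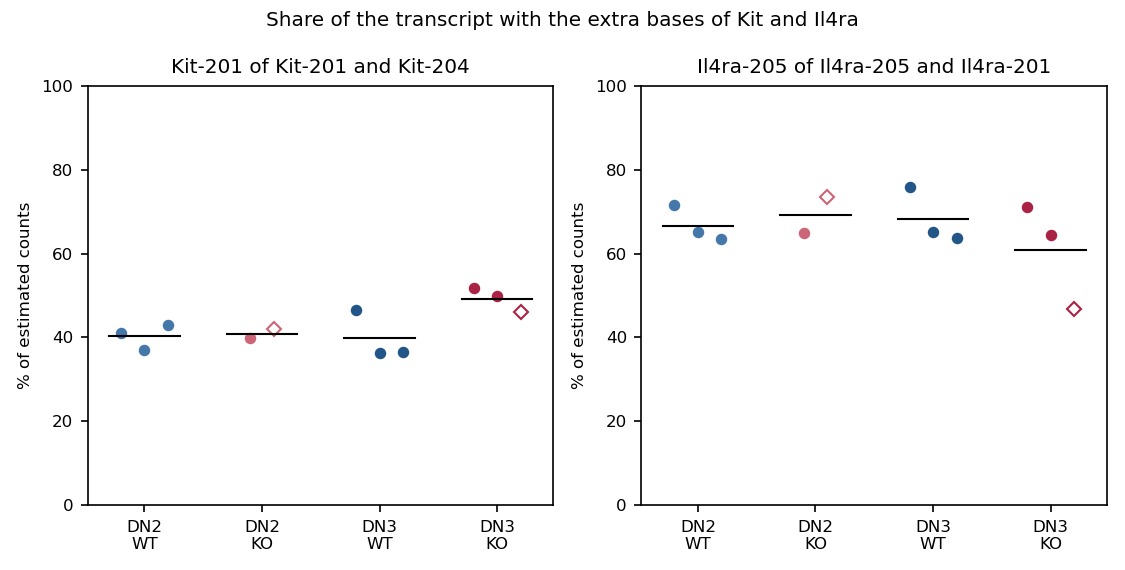
Percent of estimated counts taken by Kit-201 of Kit-201 and Kit-204 (left) and by Il4ra-205 of Il4ra-205 and Il4ra-201 (right) in each library, with group means as bars and open diamonds for the 2 libraries that stood apart. Kit-201 lies between 36.2% and 51.9% and is highest in DN3 Arpp21-/- libraries 1 and 2.

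Genes that work with the receptors were taken from lists. Of 10 target genes of STAT5, the factor downstream of interleukin-7, 3 fell from DN2 to DN3 in WT and 0 rose, where 4.08% of all genes were called and 13.5% had an unadjusted p under 0.05. They were Pim1, a survival kinase (log2 fold change -2.42 ± 0.34), Socs2, an inhibitor of cytokine signalling (-2.87 ± 0.4), and Ccnd3, a cyclin (-1.19 ± 0.23). The list's median was -0.30, against 0.01 over all genes. Of the 10, 2 fell in Arpp21-/- cells, Pim1 (-2.48) and Ccnd3 (-1.14). Of 13 inhibitors, Socs3 rose from 22.9, 30.3 and 17.1 CPM to 90.4, 103.7 and 98.9 CPM (log2 fold change 2.06 ± 0.42, adjusted p = 0.0213) and Socs2 fell, and the median was 0.12. None of 11 JAK and STAT genes and none of 14 adaptors and kinases were called by edgeR in WT, with medians of -0.25 and -0.23 and with 1 and 2 genes at an unadjusted p under 0.05. Of 21 tested further type I and II chains 0 were called in WT (6 at an unadjusted p under 0.05) and 2 fell in Arpp21-/- cells, Crlf2 (-2.16 ± 0.34), which pairs with Il7r in the receptor for thymic stromal lymphopoietin, and Il10rb (-2.14 ± 0.48, adjusted p = 0.0364). Without both libraries that stood apart Crlf2 remained called (-1.74, adjusted p = 0.00985) and Il10rb was not (-1.88, adjusted p = 0.0731). Of 10 tested chains of the interleukin-1 and interleukin-17 families Il18rap fell in WT (-3.42 ± 0.59, adjusted p = 0.0094). Of 4 tested ligands Flt3l fell in WT (-2.17 ± 0.53, adjusted p = 0.0499) and Il15 in Arpp21-/- cells (-6.34 ± 1.23, adjusted p = 0.0172), the latter not without both libraries (-4.93, adjusted p = 0.0615). The 2 tested further kinases of class III had log2 fold changes of -6.39 and -1.42 in WT and were not called. Between the genotypes no gene of these lists was called in DN2 or DN3.

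The genes whose pattern over the 11 libraries was most like that of a member were ranked by Pearson's r of log2(CPM + 0.1) among 9591 genes with a mean of at least 5 CPM. All libraries share stage, genotype and the 2 that stood apart, so r is a description. Nearest to Kit were Adgrg1 (r = 0.994), Dapp1 (0.991) and Cnn2 (0.987), to Il4ra Gm1604a (0.982), Igfbp4 (0.982) and Gna15 (0.98), and to Il1r1 Gng2 (0.982) and Emilin2 (0.972). Nearest to Il2rg were Jak1 (0.996), Cbfa2t3 (0.993) and Fam13b (0.993), to Il2ra Xpr1 (0.995), Nsf (0.993) and Cltc (0.993), and to Il7r Psd4 (0.993), Dis3l (0.992) and Pold3 (0.991). For the first of each of these last 3 sets, r fell to 0.899, 0.916 and 0.957 over the 9 libraries without those that stood apart. Nearest to Ifngr1 were Dtx4 (0.875), Isg15 (0.834) and Ltb (0.806), and to Il17rb Glb1 (0.977), Vat1 (0.933) and Lyn (0.92). Flt3 had no gene above an r of 0.806 (Fam84b), and Il2rb was nearest to Zfp93 (0.943). Among the members themselves, Il4ra and Il1r1 had an r of 0.95 and Kit and Il1r1 of 0.88, while Il7r and Il2ra went from 0.93 over 11 libraries to 0.16 over 9.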

How the data were processed

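RNA of 11 libraries of sorted DN2 and DN3 thymocytes (SMART-Seq v4, Nextera) was analysed. Per the labels, the authors ran kallisto 0.46 on transcripts of GRCm38. The deposited estimated counts per transcript are not normalized and need not be whole. The deposited TPM are counts per effective length scaled to a fixed sum, and the deposited lengths and effective lengths are in bases. Of 119414 transcripts, 116728 matched GENCODE M21 by identifier, their estimated counts were added up by gene and made whole by rounding, and the rest (about 1% of counts) were left out.

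Genes were kept by filterByExpr (minimum count 10, minimum total 15) and tested over all 4 groups with edgeR 4.0.16 (TMM, glmQLFit, glmQLFTest, R 4.3.3), two-sided, with Benjamini-Hochberg adjustment over 13780 genes and calls at an adjusted p under 0.05. Standard errors are the absolute log2 fold change over the square root of F and are approximate. Alternatives used DESeq2 1.42.0, limma 3.58.1, other scalings, filters and pseudocounts, a replicate block, and fits without libraries. Fits were tested on simulated data with a smaller spread than here, where the common dispersion was 0.281, and with no library that stood apart. That test does not show how the fits behave on these libraries. Pooled ratios have exact 95% binomial intervals that cover counting error only. A floor is 3 counts a library. Two-sided exact permutation tests used scipy 1.17.1. Same-numbered WT libraries of DN2 and DN3 deviated together (r = 0.66, 0.23 and 0.51 over 9591 genes), so numbers were taken to pair them in the replicate block. The evidence for pairs is limited, as WT libraries of unlike number had r between -0.58 and 0.31. Same-numbered libraries of DN3 WT and Arpp21-/- did not deviate together (0.46, -0.29 and 0.17), and the other comparisons have only 2 pairs. In Arpp21-/- cells same-numbered libraries of DN2 and DN3 had r of 0.73 and -0.75. Library 2 of DN2 and library 3 of DN3, which stood apart, had r = 0.81, so numbers do not pair these libraries well. The deviations of 2 DN2 libraries mirror each other, so these r are not separate evidence. Promoter windows are from RefSeq. Named are the members, Arpp21, stage and other cell type markers, called or lowest-p genes of the lists, and up to 3 genes nearest to each member (1 is not reported here). The members and lists were chosen with earlier results of these data known.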

Additional observations from a re-analysis of the deposited data

Results flagged for a closer look

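The effect of genotype on Flt3 differed between the stages at an unadjusted p of 0.0222, with an interaction of 4.79 on the log2 scale and an adjusted p of 0.964. Without both libraries that stood apart it was 8.53 (adjusted p = 1.0). Flt3 was at 3.18, 1.23 and 4.06 CPM in DN2 WT and at 0 and 0.134 CPM in DN2 Arpp21-/-, while it was at 0.0913, 0.298 and 0.177 CPM in DN3 WT and at 0.258, 0 and 0.161 CPM in DN3 Arpp21-/-. Both genotypes were at or under 7 counts a library in DN3, so a difference there was not detectable at this depth. The protein-coding transcript of Flt3 was at 0 counts in library 2 of DN2 WT, as in both DN2 Arpp21-/- libraries. Groups of 2 or 3 libraries were not searched for single outlying values.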

How the results depend on the processing

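Il4ra was called from DN2 to DN3 in both genotypes under all 20 alternatives. Members called from DN2 to DN3 in WT were 4 in place of 2 under DESeq2, under limma voom with sample quality weights and without both libraries that stood apart, 3 with no filter on low counts, with an offset for transcript length and under limma-trend with either pseudocount, and between 1 and 4 when single libraries were left out, with 1 when any DN3 WT library was left out and 4 when either DN2 Arpp21-/- library was. In Arpp21-/- cells 1 member in place of 2 was called under limma-trend on log2(TPM + 1), under voom and under the replicate block, and 3 under DESeq2, with the length offset and without both libraries. Leaving out single libraries gave between 2 and 6, the latter without library 1 of DN2 Arpp21-/-, where 6754 of 14661 genes were called. Between the genotypes in DN3, DESeq2 called 1 member and voom 2. In DN2, DESeq2 called 1, and leaving out single libraries gave between 0 and 7, the latter without library 1 of DN2 Arpp21-/-. For the interaction that range was 0 to 3, with 3 without the same library. Where 3 members were called from DN2 to DN3 in WT, edgeR added Kit with no filter (adjusted p = 0.0394) and with the offset (adjusted p = 0.0255). Limma-trend added Flt3, with an adjusted p that rounds to 0.05 on log2(TPM + 1) and of 0.0399 on log2(TPM + 0.1). Over all genes these fits called 533 of 22333, 539 of 13780, 655 of 12548 and 607 of 12548. Without DN3 WT library 1, 2 or 3 edgeR called 280, 257 and 243 genes there. The causes were not tested. On log2(TPM + 0.1) the median over all genes moved to -0.251 between the genotypes in DN3 and to -0.619 in DN2.

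Counts over all genes moved in the same way. In DN3, 1 gene was called between the genotypes by edgeR, 16 by DESeq2, 118 by voom, 2 by limma-trend on log2(TPM + 0.1), 5 without both libraries and 0 with the replicate block. In DN2 the counts were 0 by edgeR, 38 by DESeq2 and 6777 without library 1 of DN2 Arpp21-/-, and for the interaction 0, 10 and 3664. From DN2 to DN3 in WT they were 562 by edgeR, 1192 by DESeq2, 2326 by voom, 2226 without both libraries and 216 with the replicate block, and in Arpp21-/- cells 595, 1600, 140, 896 and 120. In Arpp21-/- cells the block, for which numbers are shared by only 2 pairs, ended the call of Il1r1 (adjusted p = 0.0626). The pair of library 2 there deviated in opposite ways (r = -0.75).

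Several log2 fold changes that were not called changed sign, written here with KO for Arpp21-/-. Under an offset for average transcript length they were Il2rb 0.29 (KO-WT in DN3), Kit -0.07 (the interaction), Il2rg 0.01 (DN3-DN2 in WT), Il7r 0.01 (DN3-DN2 in KO). Under limma-trend on log2(TPM + 1) they were Il2rb 0.02 (KO-WT in DN3), Il17rb -0.59 (KO-WT in DN2), Il4ra 0.04 (the interaction), Il1r1 1.09 (the interaction), Il17rb 0.07 (the interaction), Il2rb 0.02 (DN3-DN2 in WT), Il2rg 0.13 (DN3-DN2 in WT), Il7r 1.04 (DN3-DN2 in KO), Ifngr1 0.18 (DN3-DN2 in KO). Under limma-trend on log2(TPM + 0.1) they were Il2rb 0.05 (KO-WT in DN3), Il17rb -0.62 (KO-WT in DN2), Il1r1 0.46 (the interaction), Il17rb 0.07 (the interaction), Il2rb 0.52 (DN3-DN2 in WT), Il2rg 0.13 (DN3-DN2 in WT), Il7r 1.18 (DN3-DN2 in KO), Ifngr1 0.18 (DN3-DN2 in KO). Under limma voom with sample quality weights they were Il7r 0.17 (KO-WT in DN3), Il2ra 0.19 (KO-WT in DN3), Il2ra -0.0 (DN3-DN2 in WT), Il2rb 1.05 (DN3-DN2 in WT), Flt3 -0.17 (DN3-DN2 in KO), Il7r 1.20 (DN3-DN2 in KO). Without both libraries that stand apart they were Il7r 0.22 (KO-WT in DN3), Il2ra 0.18 (KO-WT in DN3), Kit 0.21 (KO-WT in DN2), Il7r 0.32 (KO-WT in DN2), Il2rg 0.16 (KO-WT in DN2), Kit -0.51 (the interaction), Il7r -0.09 (the interaction), Il2rg -0.27 (the interaction), Il2rb -0.13 (DN3-DN2 in KO), Il2rg -0.29 (DN3-DN2 in KO). Under DESeq2 they were Ifngr1 0.01 (KO-WT in DN2). Under DESeq2 size factors in edgeR they were Ifngr1 0.01 (KO-WT in DN2). Under the replicate block they were Il2rb 0.58 (DN3-DN2 in WT), Il7r 1.05 (DN3-DN2 in KO). When single libraries were left out, values that crossed zero ranged from -1.33 to 0.17 for Flt3 (KO-WT in DN3), -0.32 to 0.23 for Il7r (KO-WT in DN3), -0.47 to 0.19 for Il2ra (KO-WT in DN3), -2.87 to 0.21 for Kit (KO-WT in DN2), -3.01 to 0.32 for Il7r (KO-WT in DN2), -1.89 to 0.16 for Il2rg (KO-WT in DN2), -0.31 to 0.17 for Ifngr1 (KO-WT in DN2), -0.31 to 0.52 for Il17rb (KO-WT in DN2), -0.86 to 2.24 for Kit (the interaction), -0.38 to 2.95 for Il7r (the interaction), -0.08 to 2.98 for Il2ra (the interaction), -0.57 to 1.49 for Il2rg (the interaction), -0.78 to 0.05 for Il17rb (the interaction), -0.17 to 0.31 for Il2ra (DN3-DN2 in WT), -0.75 to 0.27 for Il2rb (DN3-DN2 in WT), -0.10 to 0.03 for Il2rg (DN3-DN2 in WT), -0.90 to 2.43 for Il7r (DN3-DN2 in KO), -0.04 to 3.03 for Il2ra (DN3-DN2 in KO), -0.15 to 5.58 for Il2rb (DN3-DN2 in KO), -0.60 to 1.46 for Il2rg (DN3-DN2 in KO). Depth limits Flt3, Il2rb and Il1r1 in DN3, where single libraries held between 0 and 43 counts.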
